A study of Mus musculus with 12 samples.

Results

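Amino acid transporter genes were examined in fibroblasts that express an N-terminal piece of VEGF on demand. The 10 genes were Slc1a3, Slc1a4, Slc1a5, Slc7a1, Slc7a5, Slc7a11, Slc3a2, Slc38a1, Slc38a2 and Slc6a9, found by symbol among the 54447 features of the count table. Slc1a3 was selected because its counts were lower with doxycycline in these libraries. For this reason the doxycycline differences of Slc1a3 are given as a description, without a test. The other 9 genes were chosen by name as amino acid transporters to set beside it, with earlier results of these data known. All 10 genes passed the filter on low counts and were among the 13608 genes tested.

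The cells were NIH3T3, an established mouse fibroblast line that the labels call mouse embryonic fibroblasts, and sequencing libraries were made from their total RNA with the TruSeq RNA kit v2. NLS-N-VEGF cells carried, through a lentivirus, N-VEGF with a histidine tag and the nuclear localization sequence of Cas9 under a doxycycline-inducible Tet-on promoter, and N-VEGF cells carried the tagged piece without that sequence. N-VEGF is the amino-terminal extension that a longer VEGF precursor carries. Each population was grown without doxycycline (dox) or with dox, for 16 h by the study's methods, which gave 4 groups of 3 libraries, called NLS-N-VEGF, NLS-N-VEGF+dox, N-VEGF and N-VEGF+dox. The infected cells were selected with puromycin and no isolation of single clones is described for them. All 4 groups carried a vector, so the effect of dox itself and that of the induced protein cannot be told apart. The labels number the libraries and add a suffix, and each group held libraries 1 and 2 of a shared suffix, called a, and a library 2 of another suffix, called b (libraries 1a, 2a and 2b). The labels do not say what the suffix is, nor whether replicates came from separate cultures, so p-values measure the spread between these libraries, which may be technical.

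Mammalian cells take up amino acids through families of solute carriers with overlapping substrates. Members of the Slc1 family carry glutamate or small neutral amino acids together with sodium, Slc38 carriers accumulate glutamine and alanine with sodium, and Slc7 light chains exchange one amino acid for another, in most cases as a dimer with the heavy chain encoded by Slc3a2. Many of these genes are known targets of ATF4, the transcription factor of the amino acid response, which starts when amino acids run short and uncharged tRNA activates the kinase GCN2. In fibroblasts the exchangers and the sodium-coupled carriers together set the supply of glutamine, leucine and cystine.

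Total counts lay between 13549331 and 18982127 per library, so that 3 counts, used as a detection floor that covers counting error only, corresponded to 0.158 to 0.221 CPM, which are counts scaled to library size by TMM. Between 19976 and 22889 features had a count, with the fewest in N-VEGF 1a. The row of the transgene, which checks the labels, held 5 to 12 counts in NLS-N-VEGF and 35 to 173 in NLS-N-VEGF+dox libraries, and 5 to 10 in N-VEGF and 121 to 268 in N-VEGF+dox libraries. In libraries 1a, 2a and 2b the transgene was at 2.57, 2.57 and 10.2 CPM in NLS-N-VEGF+dox and at 7.55, 8.07 and 17.9 CPM in N-VEGF+dox, so it was higher in suffix b and, label by label, lower in NLS-N-VEGF+dox. The 8 fibroblast markers summed to 10900 to 13800 CPM, led by Vim. Of glial markers, listed because Slc1a3 is the astrocyte glutamate transporter, Sox10 and Olig2 were at 0 in every library. Endothelial, epithelial and haematopoietic markers summed to 2.71 to 4.48, 2.03 to 3.78 and 8.31 to 13.4 CPM, with Krt5 and Cd3e at 0.

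Slc1a3 (ENSMUSG00000005360, GRCm38 chromosome 15, 8634124 to 8710764, minus strand) encodes the sodium-dependent glutamate and aspartate transporter GLAST. It was the gene of the 10 that was low with dox. In NLS-N-VEGF cells its level was 27.6, 28.2 and 11.6 CPM in libraries 1a, 2a and 2b. In NLS-N-VEGF+dox it was 10.6, 11.9 and 11.1 CPM in the libraries of the same labels. All 3 libraries with dox, and the 2b library without dox, were thus at a similar low level, and the groups overlapped. In N-VEGF cells it was 27.4, 31.8 and 14.9 CPM without dox, against 19.2, 18.6 and 9.76 CPM with dox. Here the 2b library was the lowest of its group both without and with dox, and each library with dox lay below the library of the same label without it.

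**Figure D1:**
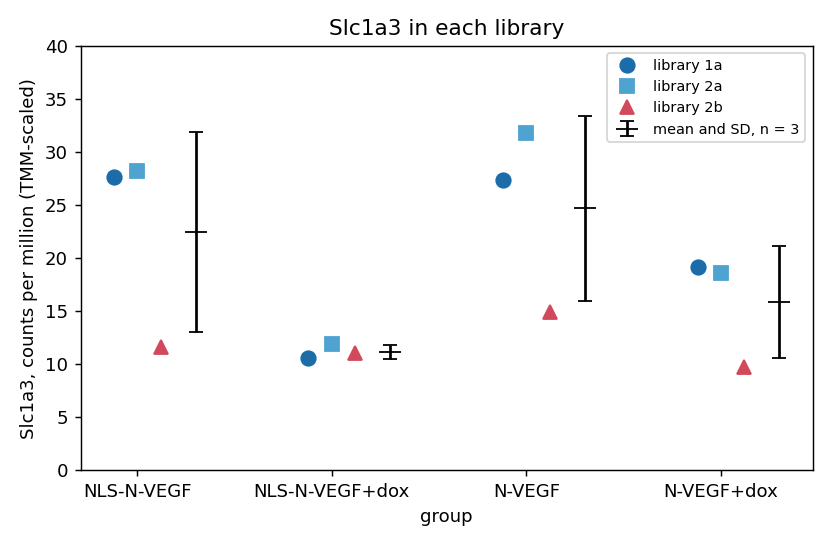
Slc1a3 level in TMM-scaled CPM (vertical axis) in each of the 12 libraries by group (horizontal axis), with symbols for the library label and black bars for the mean and SD of 3 libraries. The 2b libraries lie at 11.6 and 14.9 CPM without dox, below the suffix a libraries of their groups.

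The group means of Slc1a3 were 22.5 ± 9.43 CPM (SD, n = 3) in NLS-N-VEGF, 11.2 ± 0.67 CPM in NLS-N-VEGF+dox, and, without and with dox, 24.7 ± 8.72 and 15.8 ± 5.28 CPM in N-VEGF cells. The fitted dox effects were -1.01 (SE 0.36) on the log2 scale for NLS-N-VEGF, -0.63 (SE 0.35) for N-VEGF and -0.82 (SE 0.25) as the mean of both. With the replicate label as a block these were -0.93 (SE 0.17), -0.63 (SE 0.16) and -0.78 (SE 0.12). The log2 ratio of Slc1a3 was below 0 in 6 of 6 pairs of equally labelled libraries, which held in all 3 pairs for 2174 of 13608 genes in NLS-N-VEGF cells and for 1480 in N-VEGF cells. The ratios in NLS-N-VEGF cells lay apart by suffix, which with 1 pair of suffix b was not tested. They were -1.38 and -1.25 in the pairs of suffix a, that is 2.61-fold and 2.37-fold lower, but -0.07 in the pair of suffix b, where 163 counts were read without and 187 with dox. Those raw counts were higher with dox, so the sign of the suffix b ratio rests on the scaling to library size. The dox library of that suffix b pair had the transgene at 10.2 CPM, against 2.57 CPM in both of suffix a, and the part of this difference in the ratios was not tested. In N-VEGF cells the ratios were -0.51 and -0.77 in the pairs of suffix a and -0.62 in that of suffix b. From the libraries of suffix a alone the fold changes were -1.33 and -0.66 in the respective populations, and without NLS-N-VEGF 2b the change in NLS-N-VEGF cells was -1.33. Leaving out 1 library at a time gave changes between -1.33 and -0.82 in NLS-N-VEGF cells and between -0.91 and -0.39 in N-VEGF cells. The fits with 1 library left out had no term for the suffix. An omission within a population left the suffix unbalanced between libraries with and without dox, so these values mix both differences.

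Comparison with the other 9 transporters asked whether the low level of Slc1a3 was shared by genes of related function. None of the 9 genes passed an adjusted p of 0.05 in edgeR's quasi-likelihood test in either population, nor in the mean of both, with or without the replicate block, nor under DESeq2. Their fold changes lay between -0.04 and 0.15 in NLS-N-VEGF cells and between -0.08 and 0.17 in N-VEGF cells on the log2 scale, with medians of 0.07 and -0.01 against 0.00 for the median of all genes in each population. At an unadjusted edgeR p under 0.05 there were 0, 0 and 1 of the 9 genes in these comparisons without the block. Over all 13608 genes tested the respective numbers were 318, 201 and 423. The background of calls was small: 3 genes (0.022%) in NLS-N-VEGF cells, 5 (0.0367%) in N-VEGF cells and 8 (0.0588%) in the mean of both, all higher, and 17 (0.125%), 15 (0.11%) and 77 (0.566%) with the replicate block. Few genes of any kind were called, so an absence of calls among 9 genes is close to this background.

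**Figure D2:**
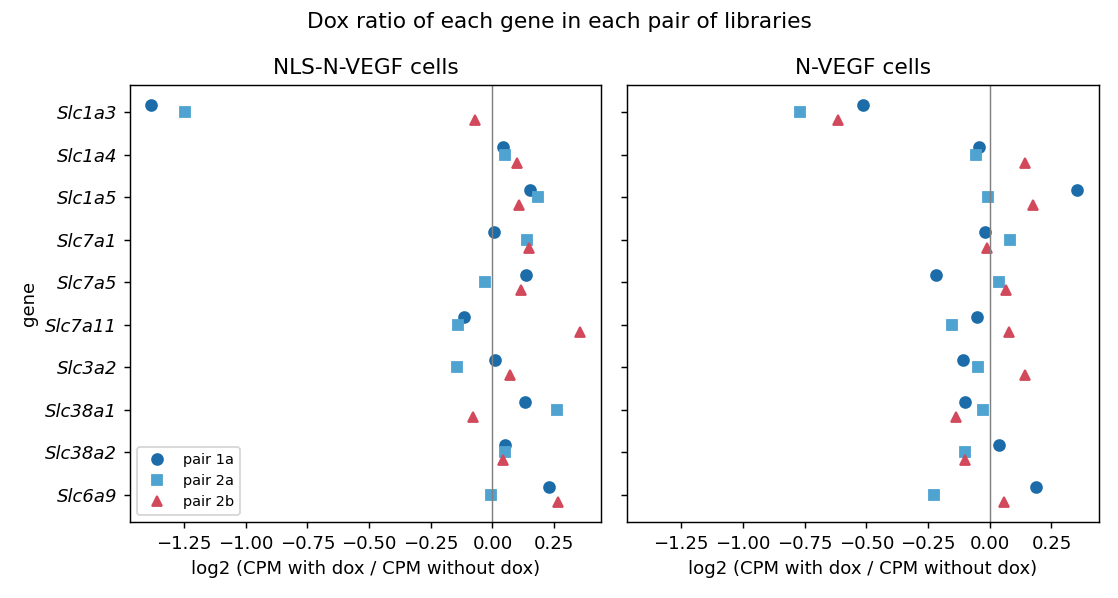
Log2 ratio of CPM with dox to CPM without dox (horizontal axis) for each of the 10 genes (vertical axis) in 3 pairs of equally labelled libraries per population, NLS-N-VEGF on the left and N-VEGF on the right. Slc1a3 lies at -1.38 and -1.25 in the suffix a pairs of NLS-N-VEGF cells and at -0.07 in the suffix b pair, and the other genes lie between -0.23 and 0.35.

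The 2 neutral amino acid carriers of the Slc1 family stood on the other side of 0 or close to it. Slc1a5 (ENSMUSG00000001918, chromosome 7, 16781340 to 16798274, plus strand) encodes ASCT2, the main sodium-dependent glutamine carrier of many dividing cells. In NLS-N-VEGF cells it was at 169, 166 and 172 CPM without dox and at 188, 188 and 185 CPM with dox, in the order of labels given above. The groups did not overlap, as was the case for the same direction in 4.78% of the genes tested. In N-VEGF cells it was at 133, 166 and 169 CPM without dox and at 169, 166 and 191 CPM with dox. The low value belonged to N-VEGF 1a, the library with the fewest detected features, and here the groups overlapped. The log2 fold change of Slc1a5 was 0.15 (SE 0.10) and 0.17 (SE 0.10), and without N-VEGF 1a the latter was 0.06. The mean of both was 0.16 (SE 0.07) (edgeR adjusted p 0.99995), and the blocked fit gave an edgeR adjusted p of 0.352. Slc1a4 (ENSMUSG00000020142, chromosome 11, 20302180 to 20332713, minus strand), the alanine, serine and cysteine carrier ASCT1, had group means of 112 ± 13.7 and 117 ± 12.1 CPM in NLS-N-VEGF cells and of 115 ± 18.6 and 116 ± 10.7 CPM in N-VEGF cells (SD, n = 3).

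Among the exchangers, Slc7a5 (ENSMUSG00000040010, chromosome 8, 121881150 to 121907694, minus strand) encodes LAT1, which imports leucine and other large neutral amino acids. Its means without and with dox were 266 ± 38.0 and 280 ± 38.6 CPM in NLS-N-VEGF cells and 277 ± 56.1 and 267 ± 31.2 CPM in N-VEGF cells. Slc3a2 (ENSMUSG00000010095, chromosome 19, 8706882 to 8723369, minus strand), its heavy chain, was at 216 ± 22.0 and 212 ± 17.2 CPM, and at 213 ± 21.5 and 212 ± 6.15 CPM in N-VEGF cells. The fold changes of this pair of partner genes were between -0.05 and 0.07, less than their SE of 0.16 and 0.10. Slc7a11 (ENSMUSG00000027737, chromosome 3, 49892526 to 50443614, minus strand) encodes xCT, which takes up cystine in exchange for glutamate and so feeds glutathione synthesis. It was at 22.4 ± 9.85 and 21.9 ± 6.77 CPM, and at 19.9 ± 4.51 and 19.2 ± 3.05 CPM in N-VEGF cells. The log2 ratio of Slc7a11 in the NLS-N-VEGF pair of suffix b was 0.35, against -0.12 and -0.14 in the other pairs. Slc7a1 (ENSMUSG00000041313, chromosome 5, 148327410 to 148399904, minus strand), the arginine and lysine carrier CAT1, was at 161 ± 42.4 and 171 ± 40.6 CPM, and at 165 ± 39.2 and 168 ± 40.9 CPM in N-VEGF cells. In each group the low value of Slc7a1 was that of suffix b.

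The sodium-coupled carriers of glutamine and alanine, SNAT1 and SNAT2, were not called with dox either. Slc38a2 (ENSMUSG00000022462, chromosome 15, 96687392 to 96699730, minus strand) was at 507 ± 34.3 and 524 ± 37.3 CPM in NLS-N-VEGF cells and at 511 ± 39.7 and 492 ± 39.9 CPM in N-VEGF cells. Slc38a1 (ENSMUSG00000023169, chromosome 15, 96571418 to 96642913, minus strand) was at 144 ± 9.61 and 157 ± 27.4 CPM, and at 148 ± 16.5 and 140 ± 17.95 CPM in N-VEGF cells. Slc38a1 had fold changes of 0.12 and -0.08 in these populations, each with an SE of 0.14. Slc6a9 (ENSMUSG00000028542, chromosome 4, 117834506 to 117875198, plus strand) encodes the glycine transporter GlyT1. It was at 68.4 ± 15.1 and 76.2 ± 14.5 CPM, and at 69.4 ± 22.0 and 69.4 ± 20.8 CPM in N-VEGF cells. Of the exon bases of Slc6a9, 38.6% are shared with genes on the opposite strand (Gm17114, Ccdc24 and B4galt2), and since the counting is not stated to use strand its values are uncertain. The exons of the other 9 genes share no base with another gene.

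The comparison of the populations asked whether the nuclear form differed from N-VEGF. The populations with dox differed in transgene level too, at 2.57 to 10.2 CPM in NLS-N-VEGF+dox and 7.55 to 17.9 CPM in N-VEGF+dox, so form and level cannot be told apart. With dox, the log2 fold change of Slc1a3 between the populations, NLS-N-VEGF over N-VEGF, was -0.51 (SE 0.36), and without dox it was -0.13 (SE 0.34). The difference of its dox effects was -0.38 (SE 0.50). The other 9 genes were all above 0 in NLS-N-VEGF+dox against N-VEGF+dox, between 0.00 and 0.19 with a median of 0.09. Without dox 3 of 9 were above 0, with a median of -0.02. Of all genes tested, 48.9% were above 0 with dox and 48.6% without dox. The 9 values with dox share the same libraries and had an SE of 0.10 to 0.33 without the block. In the blocked fit they were again all above 0, between 0.00 and 0.17, with an SE of 0.07 to 0.14. None passed the threshold in either fit, so their signs were not resolved. None of the 9 genes passed the threshold in either comparison or in the difference of the dox effects (edgeR), and 0 of them had an unadjusted p under 0.05 in each. No gene of the 13608 was called in these comparisons (0.0% each), where 160, 82 and 116 genes had an unadjusted p under 0.05, and DESeq2 called none either. With the replicate block edgeR called 2 genes (0.0147%) between the populations with dox, neither of them among the 10, and 0 (0.0%) in each of the other comparisons, and 621, 499 and 464 genes had an unadjusted p under 0.05 with dox, without dox and in the difference of the dox effects. Of the 9 genes, Slc38a1 had a log2 fold change of 0.16 (SE 0.08) with dox in the blocked edgeR fit, with an unadjusted p of 0.0475 and an adjusted p of 0.992.

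Between the suffixes of the labels, 9 of the 10 transporter genes were lower in the 4 libraries of suffix b than in the 8 of suffix a, in the edgeR test with group in the model. For comparison, 45.6% of all genes tested were called between the suffixes with 22.2% called as higher and 23.5% as lower in b. The median log2 fold change of the 10 genes was -0.34, against 0.01 over all genes. In all 4 groups the 2b library lay below the mean of the suffix a libraries for these 9 genes, which was not counted over all genes. The log2 ratio was close to 0 for Slc3a2 in N-VEGF+dox, at -0.001, and for Slc1a3 in NLS-N-VEGF+dox, at -0.03. For 7 of the 10 genes the libraries of the suffixes did not overlap, which in this direction was the case for 14.9% of the genes tested. What differed between the suffixes was not stated, so culture, RNA preparation and sequencing cannot be told apart, and the suffix was balanced over the groups.

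**Figure D3:**
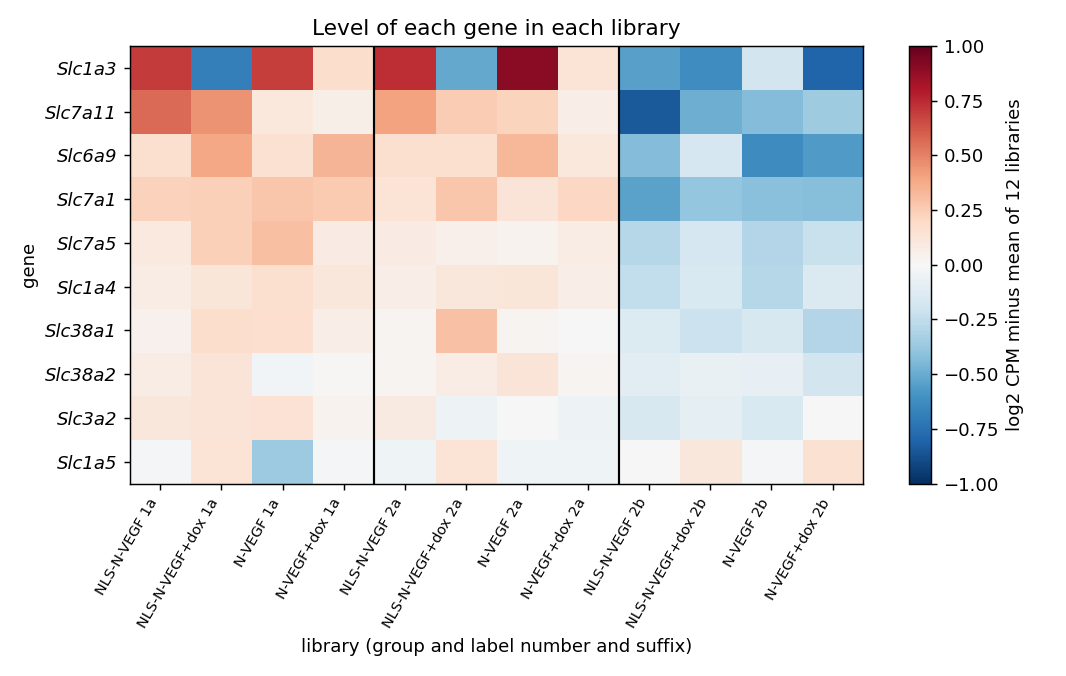
Log2 CPM of each of the 10 genes (rows) in each of the 12 libraries (columns) minus the gene's mean over the libraries, in red above and in blue below it, with vertical lines between the labels 1a, 2a and 2b. The 4 columns of suffix b are blue for most genes, and Slc1a3 is also blue in the NLS-N-VEGF+dox libraries of suffix a, at -0.68 and -0.51.

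The steepest differences were those of Slc1a3, Slc7a11, Slc6a9 and Slc7a1. Slc1a3 ran from 10.6 over a median of 23.3 to 31.8 CPM in suffix a and was 11.6, 11.1, 14.9 and 9.76 CPM in suffix b, in the order of groups NLS-N-VEGF, NLS-N-VEGF+dox, N-VEGF and N-VEGF+dox. The suffixes overlapped because the NLS-N-VEGF+dox libraries of suffix a were low as well. Within the groups the log2 ratio of suffix b to the mean of suffix a was -1.27 in NLS-N-VEGF, -0.98 in N-VEGF and -0.95 in N-VEGF+dox, but -0.03 in NLS-N-VEGF+dox. With 1 library of suffix b per group, the difference between these ratios was not tested. The fitted suffix difference of Slc1a3 was -0.82 (SE 0.13, edgeR adjusted p 1.4e-04).

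Slc7a11 ran from 20.8 over a median of 23.7 to 29.6 CPM in suffix a, and was 11.2, 14.3, 14.8 and 15.6 CPM in suffix b. All 4 libraries lay below the lowest of the other suffix, and the fold change was -0.78 (SE 0.11, edgeR adjusted p 2.7e-05). Slc7a1 ran from 178 over 192 to 197 CPM and was 112, 124, 122 and 121 CPM. Within the groups the log2 ratios of Slc7a1 lay between -0.72 and -0.62, and its fold change was -0.66 (SE 0.05, edgeR adjusted p 1.4e-07). Slc6a9 ran from 74.2 over 77.1 to 90.3 CPM and was 51.0, 61.4, 44.7 and 46.5 CPM, with a fold change of -0.67 (SE 0.08, edgeR adjusted p 4.4e-06).

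Smaller differences without overlap were measured for 4 genes. Slc7a5 changed by -0.36 (SE 0.06), Slc1a4 by -0.31 (SE 0.05), Slc38a1 by -0.30 (SE 0.06) and Slc38a2 by -0.17 (SE 0.05) on the log2 scale, with edgeR adjusted p of 1.4e-04, 9.6e-05, 3.8e-04 and 0.0109. Slc3a2 changed by -0.15 (SE 0.06, edgeR adjusted p 0.039), its libraries overlapped between 205 and 211 CPM, and its call was lost in 9 of 17 alternative settings. Slc1a5 was the exception, at 0.09 (SE 0.06, edgeR adjusted p 0.209), with 133 to 188 CPM in suffix a and 169 to 191 CPM in suffix b. The partner genes Slc7a5 and Slc3a2 thus had different fitted changes, and the difference between them was not tested.

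**Figure D4:**
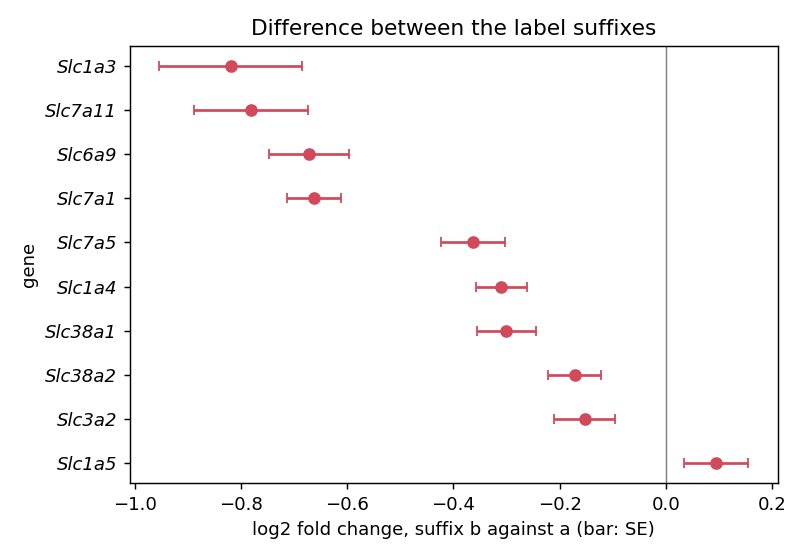
Log2 fold change of suffix b (4 libraries) against suffix a (8 libraries) on the horizontal axis for each gene on the vertical axis, with bars for the SE of the edgeR fit. The values run from -0.82 for Slc1a3 to 0.09 for Slc1a5, and 9 genes lie below 0.

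Because most of these genes moved together between the suffixes, the sequence upstream of their starts was read for short motifs. RefSeq promoter windows of build GRCm38.p6 were found for 7 of the 10 genes, in 10 windows of the 250 bases before a start. The windows of the genes with the steepest suffix differences, Slc1a3 (chr15:8710808-8711057, minus strand) and Slc7a11 (chr3:50443614-50443863, minus strand), are shown 5′ to 3′, with matches to the amino acid response core in capitals.
Slc1a3: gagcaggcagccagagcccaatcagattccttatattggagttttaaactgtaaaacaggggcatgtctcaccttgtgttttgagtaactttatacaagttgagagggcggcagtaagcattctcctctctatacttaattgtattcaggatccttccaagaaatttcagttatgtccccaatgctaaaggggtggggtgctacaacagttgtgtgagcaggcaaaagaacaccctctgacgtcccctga
Slc7a11: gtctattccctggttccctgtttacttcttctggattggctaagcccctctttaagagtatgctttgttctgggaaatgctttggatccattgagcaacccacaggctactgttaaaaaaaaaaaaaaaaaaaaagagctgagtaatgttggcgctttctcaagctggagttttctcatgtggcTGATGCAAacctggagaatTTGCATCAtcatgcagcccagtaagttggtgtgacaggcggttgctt
The amino acid response core was searched as TGATGNAA, an antioxidant response core as TGACNNNGC and an E-box as CACGTG, on both strands, and none of these contains another. The amino acid response core was present in 3.45% of 32851 RefSeq promoter windows of the same length. Of the 7 genes it was present in the window of Slc7a11, as TGATGCAA 66 bases and as its reverse complement TTGCATCA 47 bases before the start. The antioxidant response core, present in 10.2% of windows, was found once in a window of Slc7a1, once in that of Slc38a2 and in 2 of the 3 windows of Slc6a9. CACGTG, present in 6.02% of windows, was found in none of the 10 windows. A window without a match says only that these letters are not in it, and the windows of Slc1a3 and Slc7a11 had a GC content of 44.8% and 43.2%, against a median of 52.4% over all windows.

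Of 50 other amino acid transporter genes in the table, 22 passed the filter on low counts. With dox 0 of these 22 were called in either population by edgeR, with or without the block, and their median log2 fold changes were -0.03 in NLS-N-VEGF and -0.02 in N-VEGF cells. The most abundant of them were Slc6a6, the taurine transporter, at a mean of 338 CPM and Slc38a10 at 151 CPM. The remaining glutamate transporters of the Slc1 family did not pass the filter: the neuronal and glial genes Slc1a1, Slc1a2, Slc1a6 and Slc1a7 had at most 10 counts in a library, and Slc1a6 was at 0 in all 12. Between the suffixes 4 of the 22 genes were higher and 5 were lower in b, with a median of 0.00, which is close to the 22.2% and 23.5% of all genes. The higher genes were led by Slc3a1, the heavy chain of cystine uptake in kidney, at 0.69 to 1.23 against 2.62 to 3.31 CPM, and by Slc7a3, the arginine carrier CAT3, at 2.76 to 7.38 against 14.4 to 17.6 CPM. Their log2 fold changes were 1.60 and 1.43 (edgeR adjusted p 3.1e-06 and 2.5e-06), and 26.5% of the exon bases of Slc3a1 are shared with Prepl on the opposite strand. Pqlc2, a lysosomal exporter of cationic amino acids, changed by 0.62 and Slc6a15 by 0.50. The lower genes included Slc17a7, a vesicular glutamate transporter, at -1.15, Slc43a1 and Slc38a6 at -0.44 each, and Slc36a4 at -0.23. Slc7a1 and Slc7a3, which both carry cationic amino acids, thus differed between the suffixes in opposite directions.

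None of the 23 genes of the amino acid response was called with dox by edgeR, with or without the block, and Psat1 and Atf4, the most abundant at 714 and 532 CPM, changed by 0.09 and -0.01 on the log2 scale in NLS-N-VEGF cells and by -0.06 and 0.02 in N-VEGF cells. Between the suffixes 16 of 23 genes were lower in b and 1 was higher, with a median of -0.35, against 23.5% lower and 22.2% higher of all genes. The other 6 were not called, and 3 of the 23 lay above 0. Among the lower genes, Chac1, which degrades glutathione, was at 16.1 to 23.9 against 6.17 to 7.35 CPM. Trib3, a pseudokinase that restrains the response, was at 33.5 to 52.9 against 14.3 to 18.3 CPM. Their log2 fold changes were -1.55 and -1.31, followed by Ddit4 at -1.09, Pycr1 of proline synthesis at -0.94, Psph of serine synthesis at -0.52 and Cebpb at -0.45, of whose exon bases 20.7% are shared with Tmem189 on the opposite strand. Atf3, at -1.61, was a low gene with 1.03 to 1.88 against 0.414 to 0.669 CPM. The higher gene was Vldlr, a lipoprotein receptor, which was at 0 to 0.07 CPM, under the detection floor, in suffix a and at 0.784 to 1.27 CPM in suffix b. Asns, which is also in the list of glutamate enzymes, was among the genes that were not called, at 0.04.

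None of the 18 genes that use the transported glutamate, glutamine and aspartate was called with dox by edgeR, where the abundant Asns, which makes asparagine, had changes of 0.15 in NLS-N-VEGF and -0.05 in N-VEGF cells and Cad, which starts pyrimidine synthesis, of -0.04 and -0.12. Between the suffixes 4 of 18 were higher and 6 lower in b, which is near the background, since 22.2% and 23.5% of all genes were called in these directions. Both subunits of glutamate-cysteine ligase, which follows cystine uptake in glutathione synthesis, were higher, Gclm at 0.44 and Gclc at 0.39, whereas the cystine carrier gene Slc7a11 was lower. Asnsd1 was at 0.29, but other genes cover 65.0% of its exon bases. Gpt2, the mitochondrial alanine transaminase, was lowest at -0.65, followed by Aldh18a1 of proline synthesis and Gfpt1 of hexosamine synthesis at -0.43 each, Cad at -0.42 and Ppat of purine synthesis at -0.40. Other genes also cover 10.4% of the exon bases of Psph, 8.58% of those of Gclm and 6.15% of those of Ppat. Of 10 mitochondrial amino acid carriers that passed the filter, of 12, none was called with dox by edgeR, with changes of 0.03 and 0.05 for Sfxn1 and of -0.05 and -0.02 for Sfxn3. Between the suffixes 3 were higher, namely the glutamate carrier Slc25a22 at 0.57, Sfxn2 at 0.44 and Slc25a38 at 0.21, and Slc25a15 and the serine carrier Sfxn1 were lower at -0.21 and -0.19, and these 5 of 10 genes compare with 45.6% of all genes called.

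Levels of the 10 genes were ordered by CPM per kb of exon, as the median of 12 libraries. Slc7a5 was highest at 76.1, followed by its heavy chain Slc3a2 at 60.1, Slc38a2 at 58.2, Slc1a5 at 40.6, Slc1a4 at 30.6, Slc7a1 at 15.9, Slc6a9 at 15.0, Slc38a1 at 8.66, Slc1a3 at 1.97 and Slc7a11 at 1.53 CPM per kb. Slc3a2 exceeded Slc38a2 in 9 of 12 libraries, Slc1a5 exceeded Slc1a4 in 11, Slc7a1 exceeded Slc6a9 in 7, and Slc1a3 exceeded Slc7a11 in 10, so these neighbours did not keep one order in every library. The glutamate transporter and the cystine-glutamate exchanger were thus the least abundant transcripts of the set. Slc1a3 spanned 1.14 to 3.72 and Slc7a11 0.804 to 2.13 CPM per kb.

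**Figure D5:**
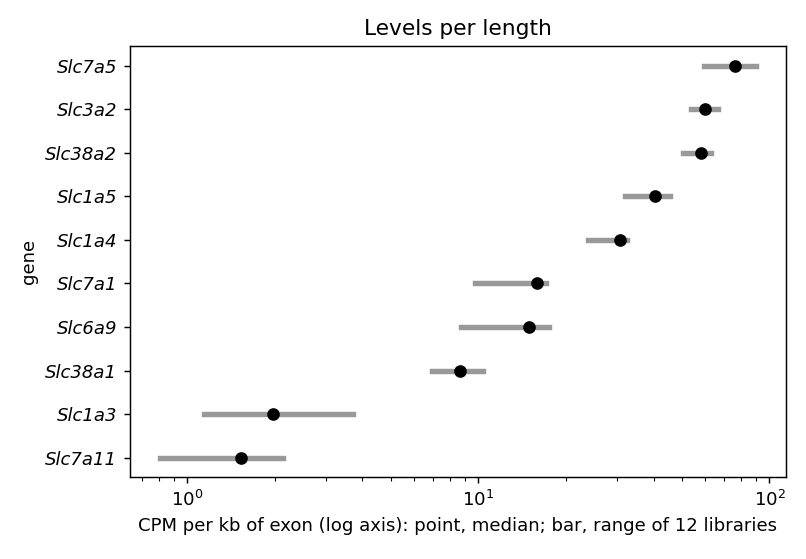
Level of each gene in CPM per kb of exon on a log axis, with the median of 12 libraries as a point and their range as a bar. Slc38a1 at 8.66 is separated from Slc1a3 at 1.97 and Slc7a11 at 1.53 by a gap without overlap.

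The genes with a pattern most like that of Slc1a3 were taken by Pearson's r of log2(CPM + 2) over the 12 libraries, after subtracting the mean of each suffix, among the 12057 genes that averaged 1 CPM or more. They were Gm43618 (r = 0.98), Arrdc4 (0.98), Fam135b (0.97), Txnip (0.94) and Mgp (0.94). The points share libraries and depth, the measure includes the dox difference on which Slc1a3 was selected, and no test is given. Txnip, which encodes thioredoxin-interacting protein, was at 42.8 ± 27.3 and 14.2 ± 6.01 CPM (SD, n = 3) in NLS-N-VEGF cells before and under dox, and at 44.8 ± 30.7 and 23.2 ± 15.4 CPM in N-VEGF cells, with 19.4% of its exon bases shared with Gm15441 on the opposite strand. Arrdc4, which encodes an arrestin-domain protein, had log2 ratios of -1.13 and -1.50 in the suffix a pairs and of 0.12 in the suffix b pair of NLS-N-VEGF cells, and its ratios in N-VEGF cells lay between -0.76 and -0.44. Gm43618, of whose exon bases 9.53% are shared with Ptgfr on the opposite strand, had ratios of -1.13, -1.09 and -0.03 in the same order, and between -0.68 and -0.39 in N-VEGF cells. Mgp, which encodes matrix Gla protein, had ratios between -1.47 and -0.59 in NLS-N-VEGF and between -1.03 and -0.88 in N-VEGF cells. Fam135b was at 4.68 ± 2.54 and 1.58 ± 0.36 CPM in NLS-N-VEGF cells. Among the 9 other transporters r ran from 0.09 for Slc3a2 to -0.68 for Slc1a5.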

How the data were processed

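RNA of 12 libraries was sequenced by the authors as single reads from TruSeq v2 libraries. Per the study's methods and the submitters' processing notes, reads were trimmed (Trim Galore, cutadapt 1.10), aligned to GRCm38 with TopHat2 2.1.0 and Bowtie2 2.2.6, and counted with HTSeq 0.6.1, and the deposited values are raw counts per feature. The strand option of the counting is not given in the sources used here. Groups were taken from the labels. Counts were filtered (filterByExpr by group), scaled by TMM and fitted with edgeR 4.0.16 (R 4.3.3), by quasi-likelihood with group means, and Benjamini-Hochberg adjusted p under 0.05 over 13608 genes was the threshold. The suffix of the labels was tested with group in the model. The scripts were tested on simulated data. CPM per kb used the union of exons of the GENCODE M21 annotation (GRCm38), in which 54409 of 54447 identifiers were found. Promoter windows were copied from RefSeq.

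Deviations from the group means correlated by 0.40 to 0.83 (mean 0.59) over 18 pairs of libraries with the same number and suffix, so these labels were used as a replicate block. Most of this followed the suffix: pairs of different suffix correlated by -0.61 on average (24 pairs), whereas within suffix a pairs of different number (0.14 to 0.68, mean 0.47, 12 pairs) were close to those of the same number (mean 0.51, 12 pairs). Members and gene lists were chosen with earlier results of these data known. Named genes were all 10 members, of each other list up to 8 genes past the threshold in a comparison by size of change or otherwise its 2 most abundant genes, and 5 genes by likeness to Slc1a3. The glutamate transporters at or near 0 counts, and Asns in the suffix comparison, fall outside this rule and were named after their values were seen. Alternatives were DESeq2 1.42.0, RLE scaling, other filters, the block, the suffix as covariate, single suffixes or numbers, and each library left out.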

Additional observations from a re-analysis of the deposited data

How the results depend on the processing

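Over 19 alternatives no dox call was gained among the 9 transporters other than Slc1a3, and over 17 alternatives the number of the 10 genes called between the suffixes was 8 or 9, with Slc3a2 the gene that was lost. The replicate block changed no call among these 9 genes. Counts over all genes moved. Suffix a alone left 2 libraries per group, so the spread behind its counts was less well measured. The dox calls in NLS-N-VEGF cells were 17 with the replicate block, 15 with the suffix as covariate, 109 in suffix a alone, 12 with DESeq2 and 53 without a filter beyond 1 count. Those in N-VEGF cells were 15, 13, 16, 8 and 36 under the same settings, and those in the mean of both 77, 73, 135, 21 and 77. The difference of the dox effects had 4 calls in suffix a alone and 1 without the filter. With dox the populations differed in 2 genes with the replicate block, 2 with the suffix as covariate, 11 in suffix a alone and 9 without the filter, and without dox in 5 and 10 genes under the last 2 settings. Leaving out 1 library gave 0 to 3 dox calls in NLS-N-VEGF cells, 1 to 7 in N-VEGF cells and 5 to 9 in the mean of both.

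Small dox changes that were not called turned sign. In N-VEGF cells Slc1a4 was at -0.0625 in suffix a alone, at -0.0023 with DESeq2 and with RLE scaling and at -0.0056 without the filter, and Slc6a9 was at 0.0012 with the replicate block and 0.0041 with the suffix as covariate. Leaving out 1 library in NLS-N-VEGF cells gave -0.0441 to 0.1457 for Slc1a4, -0.12 to 0.28 for Slc7a1, -0.0476 to 0.1715 for Slc7a5, -0.37 to 0.21 for Slc7a11, -0.112 to 0.0265 for Slc3a2, -0.012 to 0.1053 for Slc38a2 and -0.0249 to 0.289 for Slc6a9. In N-VEGF cells it gave -0.1444 to 0.0838 for Slc1a4, -0.18 to 0.21 for Slc7a1, -0.21 to 0.10 for Slc7a5, -0.2484 to 0.0741 for Slc7a11, -0.0997 to 0.0671 for Slc3a2, -0.1864 to 0.0158 for Slc38a1, -0.12 to 0.01 for Slc38a2 and -0.26 to 0.22 for Slc6a9. Most of these extremes came without a library of suffix b. The fits with 1 library left out had no term for the suffix. An omission within a population left the suffix unbalanced between libraries with and without dox, so these values mix both differences. The share of each in them was not tested. With 3 libraries per group the SE of these dox changes was 0.10 to 0.33 without a block and 0.07 to 0.14 with the replicate block. Changes smaller than that were not resolved.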
